A study of Mus musculus with 16 samples.

Results

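Spleen was compared with lung at the level of whole genes in short-read RNA-seq of mouse organs, to describe the immune and the vascular content of the 2 organs. The comparison took the fed spleen and the fasting spleen against the fed lung and the fasting lung, and kept the genes whose difference had the same direction in the fed pair and in the fasting pair. Of the 55385 genes in the count table, 33356 had a count in at least 1 of these 4 libraries. Of these, 25445 had the same direction in both pairs, with 14112 higher in spleen and 11333 higher in lung. A further 3695 had opposite directions in the 2 pairs and 4216 were equal in at least 1 pair. The sign of these differences chose the genes, so that a shared direction of a listed gene is a description and not a test.

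The animals were male C57BL/6 mice, 12 weeks old when acquired, that were kept with free access to chow (fed) or without food for 24 h (fasting). Each library was made from the tissue of 3 mice of a treatment, pooled in equal parts, so that each organ had 1 fed and 1 fasting library and the same 2 pools of mice gave all 8 organs of the study (muscle, liver, white and brown adipose tissue, heart, spleen, kidney and lung). The spread between mice within a pool was therefore not measured, and the p-values rest on the spread between the 2 libraries of each organ over the 16 libraries. RNA came from powder of the pooled frozen tissue, so that no cell type was sorted, and whether blood was flushed from the organs is not given in the sources used here.

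The spleen libraries held 22649767 (fed) and 27832852 (fasting) gene counts, and the lung libraries 30058806 and 36069968. Over the 19365 genes that reached 1 CPM (a count scaled to a library total of 1000000) in any of the 4 libraries, the 2 spleen libraries correlated at r = 0.992 and the 2 lung libraries at r = 0.989 on the log2(CPM + 1) scale. Spleen and lung correlated at 0.773 in the fed pair and 0.756 in the fasting pair. These are correlations across genes, which are not independent replicates. Of the genes with the same direction, 20943 passed the filter on low counts and entered the fit, and 4502 did not.

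The spleen filters blood through a red pulp of sinuses and macrophages that remove old red cells, and holds a white pulp of B cell follicles and T cell zones around its arterioles. The lung is built of airways and alveoli, whose thin type 1 cells lie against a dense capillary bed and whose type 2 cells secrete surfactant, with macrophages living on the air side. Resident and circulating leukocytes are present in both organs, and their vessels differ in kind: open sinusoids with discontinuous walls in the spleen, and continuous capillaries in the alveolar wall.

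The labels were checked on 1 defining gene for each organ. Ms4a1, which encodes the B cell surface protein CD20 (chr19:11249675-11266241, minus strand of GRCm38), had 883/861 CPM in spleen and 46.0/21.3 CPM in lung, the fed library being given before the slash and the fasting library after it, here and throughout. Sftpc, the surfactant protein C gene of alveolar type 2 cells (chr14:70520949-70524081, minus strand), had 5.52/6.83 CPM in spleen and 5835/4848 CPM in lung. Each marker was high in both libraries of its own organ, and the libraries of the 2 organs did not overlap. A fold change is the log2 of spleen over lung from edgeR's quasi-likelihood fit, given ± its standard error with 2 libraries an organ, and is negative where lung was higher. The fold change was 4.73 ± 0.29 for Ms4a1 (adjusted p = 4.45e-07) and -9.81 ± 0.32 for Sftpc (adjusted p = 9.16e-08).

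Across the 23580 genes tested, 4574 (19.4%) were called higher in spleen and 5197 (22.0%) higher in lung, at an adjusted p under 0.05 and a log2 fold change beyond 1. The median fold change of all tested genes was 0.11. Every count of list members below is to be read against these shares, since 41.4% of the tested genes were called in 1 direction or the other. Both spleen libraries were above both lung libraries, by level alone, for 47.2% of the tested genes, and both lung libraries above both spleen libraries for 36.6%. Of the called genes, 9760 had the same direction in both pairs and 11 did not. Of the genes called higher in spleen, 2692 were protein-coding, 219 were immunoglobulin genes or segments and 87 were T cell receptor genes or segments. Of those called higher in lung, 4060 were protein-coding and none was an immunoglobulin or T cell receptor gene in the annotation. Among all 23580 tested genes, 16413 were protein-coding. The filter kept immunoglobulin and T cell receptor segments through the organ where they were high, so that their counts are a description. Spleen had the highest mean level of the 8 organs for 84.3% of the genes called higher in spleen, whereas lung had the highest mean level for 49.0% of those called higher in lung.

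Among genes with at least 10 CPM in both libraries of the higher organ, the 10 genes with the largest fitted fold changes toward spleen included Tlx1 and Coch. Tlx1, a homeobox gene needed to form the spleen (chr19:45150680-45156943, plus strand), had 25.3/22.6 CPM in spleen and 0/0.0277 CPM in lung, where 1 count was found in all. Its pooled level was 1577-fold (95% interval 283 to 62346) higher in spleen. Coch, which encodes the extracellular protein cochlin (chr12:51593341-51605771, plus strand), had 911/1186 CPM in spleen against 1.3/1.5 CPM in lung (fold change 9.49 ± 0.37, adjusted p = 4.96e-08). Both spleen libraries stood far above both lung libraries for each of these genes. Madcam1, the addressin of sinus-lining cells, was 838-fold (95% interval 149.9 to 33164) higher in spleen. The homeobox gene Nkx2-3 and the nuclear receptor gene Nr5a1 (steroidogenic factor 1) were higher by 809.5-fold (95% interval 145 to 32026) and 722-fold (95% interval 199 to 5967). These intervals cover counting error alone, and the lung held 1 or 2 counts of each of these 4 genes in all. The other 5 were Csmd3, the non-coding 2900052N01Rik, Spic and the heavy chain genes Ighg3 and Ighg2c.

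The 10 largest fitted fold changes toward lung belonged to genes without a single count in either spleen library, several of which encode parts of motile cilia. Only a lower bound can be given for each, so that their rank among all genes follows the fit and is not measured. Cfap206, an axonemal gene (chr4:34688559-34730206, minus strand), had 26.1/29.3 CPM in lung and was at least 197-fold higher there, taking 3 counts per spleen library as the floor. Dynlrb2 (a dynein light chain), Iqca, Stk33, Tekt1 (a tektin of the axoneme), Fam183b and Zbbx were at least 165, 127, 115, 102, 97.2 and 93.9-fold higher in lung. The other 3 were the mucosal chemokine gene Cxcl17 (at least 170.0-fold), the homeobox gene Irx5 (at least 196-fold) and the potassium channel subunit gene Kcne2 (at least 133-fold). All 10 had their highest mean level of the 8 organs in lung.

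**Figure D1:**
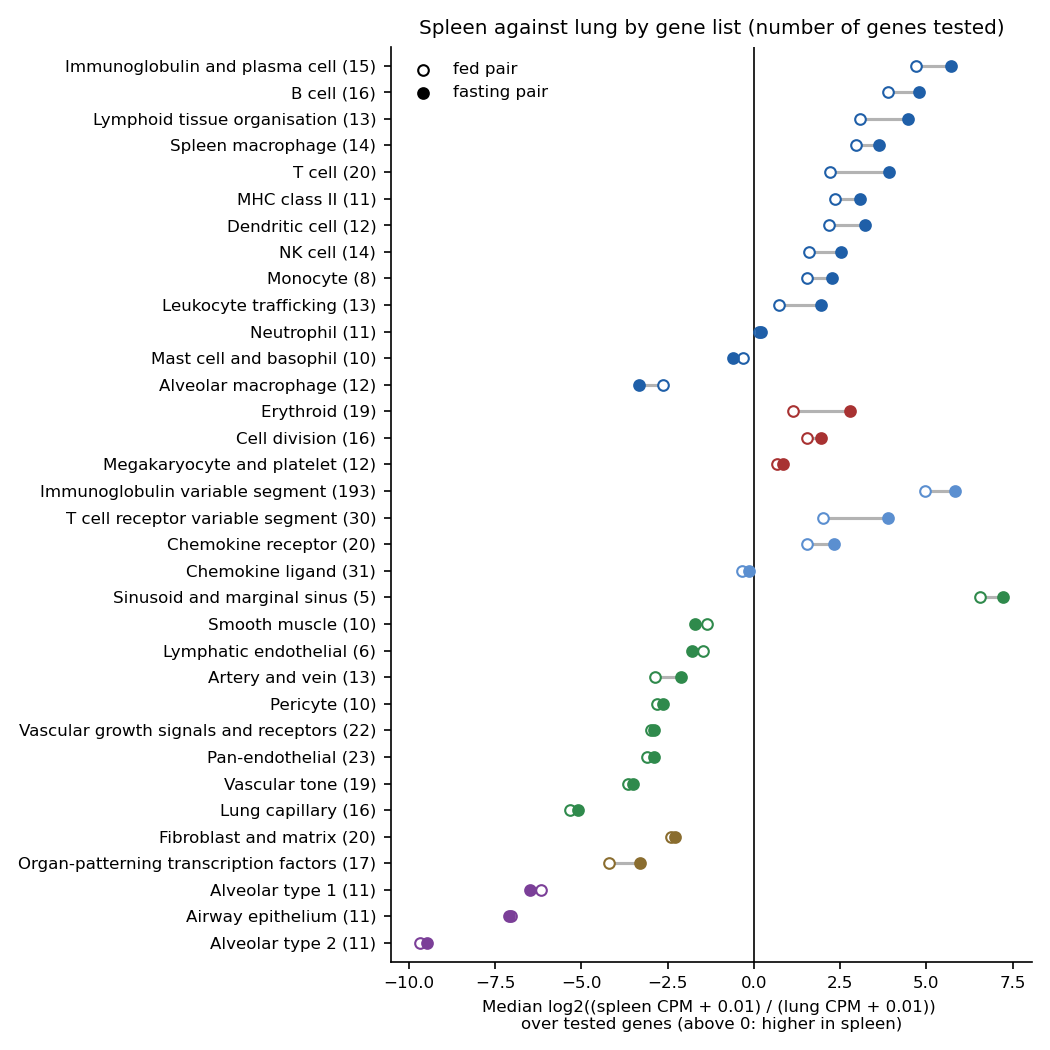
Median log2 ratio of spleen over lung (CPM + 0.01) for each gene list, on the x axis, in the fed pair (open circles) and in the fasting pair (filled circles), with the number of genes tested in brackets. Dark blue marks immune lists, red blood and dividing cells, light blue gene families, green vascular and mural lists, brown stroma and organ patterning, and purple epithelium. Lymphoid lists and the sinusoid list lie right of 0, and the pan-endothelial, capillary, mural and epithelial lists left of it, and the neutrophil list lies at 0.15 and 0.22.

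B lineage genes were higher in spleen throughout the list. In the B cell list, 16 of 16 tested genes were called higher in spleen, against 19.4% of all tested genes, with a median fold change of 4.30 (fed pair 3.89, fasting pair 4.79) against 0.11. Since tissue and not sorted cells was sequenced, fewer cells of a type and less RNA per cell cannot be told apart in this or any later difference. Cr2, the complement receptor CD21 of mature B cells and follicular dendritic cells, had the largest fold change of the list, with 1151/988 CPM in spleen against 25.7/10.4 CPM in lung (5.94 ± 0.35, adjusted p = 3.28e-07). Cd79b, an immunoglobulin-associated signalling chain, was the most abundant of them per length, at 422 RPKM (CPM per kilobase of exon) in spleen and 23.0 RPKM in lung. It had 609/600.3 CPM in spleen and 42.9/22.9 CPM in lung. Cd79a, its partner chain, had 352/330.1 CPM in spleen against 23.8/12 CPM in lung. Ebf1, a B lineage transcription factor also made by stromal cells, had the smallest difference of the list (2.82 ± 0.21), with 349/323 CPM in spleen and 52.7/40.0 CPM in lung. In each of these genes both spleen libraries were above both lung libraries, and the fed lung was above the fasting lung.

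Immunoglobulin genes mark B cells and the plasma cells that secrete antibody. Of 15 tested genes of this list, 14 were higher in spleen and 1 was higher in lung (median 5.19). The kappa constant gene Igkc reached 3269 RPKM in spleen and 83.5 RPKM in lung, and the mu heavy chain gene Ighm 2671 and 75.5 RPKM. The lambda constant gene Iglc1 followed with 409 and 8.26 RPKM. Ighm had 4880.3/5195 CPM in spleen against 186/98.6 CPM in lung. The largest fold changes of the list were those of 3 IgG heavy chain genes, with 7.78 ± 0.61 for Ighg3, 7.19 ± 0.65 for Ighg2c and 7.15 ± 0.46 for Ighg1. Igha, the heavy chain of mucosal IgA, had 78.0/124 CPM in spleen against 4.29/4.02 CPM in lung (4.52 ± 0.56). Jchain, which joins IgM and IgA into polymers, had 492/495 CPM in spleen and 4.23/2.52 CPM in lung (7.15 ± 0.40). The exception was Sdc1, which encodes syndecan-1, a proteoglycan of plasma cells that epithelia also make, with 16.4/14.4 CPM in spleen and 217/200.5 CPM in lung (-3.81 ± 0.18, adjusted p = 1.09e-07). Its highest mean level of the 8 organs was in liver.

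Variable segments were counted beside the constant genes. Of 348 annotated immunoglobulin variable segments, 193 passed the filter and all of these were called higher in spleen, with a median fold change of 5.33 (5.27 with the segments at 0 in lung set to their lower bound). The filter kept segments that were high in spleen, so that this count is a description. The most abundant segment per length was Iglv1 of the lambda locus (chr16:19085017-19085500, minus strand), with 138/132 CPM in spleen and 3.79/1.33 CPM in lung. Igkv1-117 had 67.0/71.6 CPM in spleen and 2.13/0.832 CPM in lung, and Ighv1-26 65.7/74.0 CPM in spleen and 2.26/0.859 CPM in lung. Segments of a family are near-identical in sequence, so that reads could be shared or lost between them and the value of any 1 segment is uncertain.

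T cell genes were higher in spleen, and the lung levels differed between the 2 pairs. All 20 of 20 tested genes of the T cell list were called higher in spleen (median 2.88), with a median of 2.2 in the fed pair and 3.91 in the fasting pair. Cd4, the co-receptor of helper T cells, had 90.3/94.0 CPM in spleen and 18/4.49 CPM in lung, and Cd8a, the co-receptor of cytotoxic T cells, 76.7/66.7 CPM in spleen and 18.3/3.44 CPM in lung. The 2 spleen libraries were close to each other, whereas the fed lung was several-fold above the fasting lung. The receptor constant gene Trac had 49.1/54.3 CPM in spleen and 8.32/3.27 CPM in lung (3.26 ± 0.40), and Trbc2 was the most abundant per length, at 126 RPKM in spleen and 20.7 RPKM in lung, followed by Trbc1 at 69.3 and 11.9 RPKM. Foxp3, the factor of regulatory T cells, and Ctla4, an inhibitory receptor, had the largest fold changes of the list (3.95 ± 0.62 and 3.75 ± 0.58), and Tcf7, a factor of naive and developing T cells, the smallest (1.65 ± 0.49). Of 170 T cell receptor variable segments, 30 were tested and 24 were higher in spleen, led by Trbv13-2 with 5.65/5.17 CPM in spleen and 1.36/0.333 CPM in lung. Here too the filter kept segments through the organ where they were high, so that the count is a description.

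The fed lung also held genes of developing thymocytes. The 4 thymocyte genes summed to 77.0/1.03 CPM in the fed and the fasting lung and to 4.33/5.10 CPM in spleen. Rag1, a recombinase of lymphocyte precursors, had 60.9/0.776 CPM in lung and 1.15/1.08 CPM in spleen, and Dntt, the terminal transferase, 13.9/0.166 CPM in lung and 3.05/3.99 CPM in spleen. Ptcra, the pre-T cell receptor chain, was at 0 counts in both spleen libraries, which allows up to 0.132 CPM in the fed and 0.108 CPM in the fasting one, and at 0.333/0.0277 CPM in lung. With the fed lung left out, 20 of 20 T cell genes were called higher in spleen, with a median of 3.72. With the fasting lung left out, 18 were called, with a median of 2.34.

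Natural killer (NK) cell genes had smaller fold changes. In this list 13 of 14 tested genes were higher in spleen (median 2.01). Gzma, a granule protease, had 36.2/26.3 CPM in spleen and 20.7/9.20 CPM in lung (1.14 ± 0.30), and Ccl5, a chemokine of NK and T cells, 29.4/33.5 CPM in spleen and 7.49/5.21 CPM in lung (2.29 ± 0.40). Klrd1, the receptor chain CD94, stood at 35.0/40.1 CPM in spleen and 6.92/5.21 CPM in lung. For these 3 genes the organs did not overlap. Gzmb, another granule protease, had 3.49/2.84 CPM in spleen and 4.32/2.22 CPM in lung, with overlapping organs and no call (adjusted p = 0.988). The count of NK genes depended on the fasting libraries: 8 of 14 were called without the fasting spleen and 7 without the fasting lung.

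**Figure D2:**
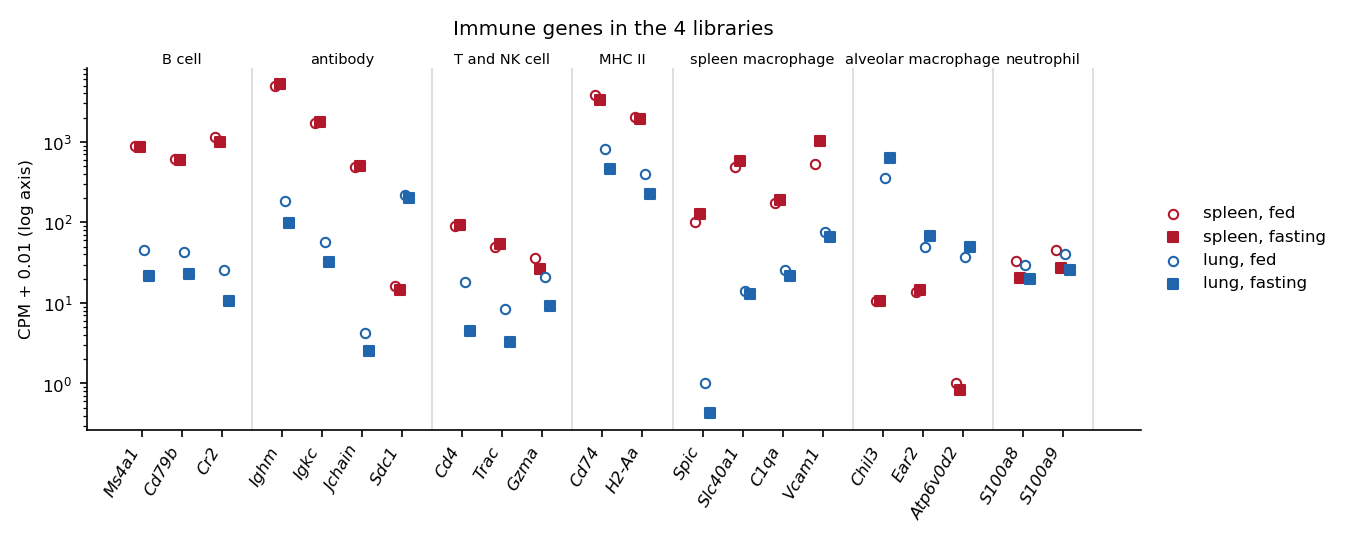
Level of immune genes in each of the 4 libraries, as CPM + 0.01 on a log axis, with spleen in red, lung in blue, fed libraries as open circles and fasting libraries as squares. Lymphoid and spleen macrophage genes lie higher in both spleen libraries, Chil3, Ear2, Atp6v0d2 and Sdc1 higher in both lung libraries, and S100a8 and S100a9 of neutrophils overlap between the organs.

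Genes that lay out lymphoid tissue were higher in spleen in 11 of 13 tested cases (median 3.61). Cxcl13, the chemokine that draws B cells into follicles (chr5:95956951-95961068, plus strand), had 128/115 CPM in spleen and 2.56/2.91 CPM in lung (5.49 ± 0.59, adjusted p = 2.00e-05). Its receptor Cxcr5 had 209/210.1 CPM in spleen and 17.5/7.10 CPM in lung (4.23 ± 0.38). The ligand and the receptor were thus both high in the 2 spleen libraries and low in the 2 lung libraries. Ltb and Lta, lymphotoxins that B and T cells send to stromal cells, had fold changes of 3.94 ± 0.28 and 4.84 ± 0.53. Their receptor Ltbr, made by stromal and epithelial cells, was the 1 gene of the list that was higher in lung, with 21.8/20.3 CPM in spleen and 76.3/76.9 CPM in lung (-1.92 ± 0.20). Tnfsf13b, the B cell survival factor BAFF, had 10.2/11.7 CPM in spleen and 18.6/15.8 CPM in lung and was not called, whereas its receptor Tnfrsf13c had 149/136 CPM in spleen and 6.49/3.22 CPM in lung (4.93 ± 0.36). Ccl19, a T zone chemokine, had few counts in both organs, with 1.19/0.359 CPM in spleen and 0.133/0 CPM in lung. Ccl21a was not tested, with 1 count over the 4 libraries. How reads that match several places were counted is not given in the sources used here. The low counts of Ccl19 and Ccl21a may therefore not show a low RNA level.

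Most chemokine receptor genes were higher in spleen, and the chemokine ligand genes were near the shares of all tested genes (19.4% in spleen and 22.0% in lung). Of 20 tested receptor genes, 14 were higher in spleen and 2 in lung (median 2.04), whereas of 31 tested ligand genes 8 were higher in spleen and 9 in lung (median -0.25). The receptors higher in lung were Ackr2 (15.5/15.4 CPM in spleen, 31.8/54.3 CPM in lung) and Ackr4 (2.08/1.26 CPM in spleen and 11.6/4.24 CPM in lung), which scavenge chemokines without signalling for migration. Cxcr4, which holds leukocytes in tissue, was the most abundant receptor gene per length in both organs, at 83.6 RPKM in spleen and 32.3 RPKM in lung (1.3 ± 0.28). Ccr7, the receptor that guides T cells and dendritic cells, had 97.5/93.7 CPM in spleen and 22.9/9.51 CPM in lung. Ccr2, the receptor of inflammatory monocytes, had 65.6/41.6 CPM in spleen and 54.6/31.5 CPM in lung and was not called (0.28 ± 0.17). Among the ligands, Cxcl16, a membrane-bound chemokine of macrophages and dendritic cells, had 35.3/28.8 CPM in spleen and 57.7/49.5 CPM in lung (-0.79 ± 0.20). Of those of lymphoid and activated tissue, Cxcl9 and Cxcl10, both induced by interferons, had 38.6/21.2 and 18.3/17.9 CPM in spleen and 0.632/0.194 and 1.16/0.499 CPM in lung. Cxcl12, the broadly made ligand of Cxcr4, had 291/399.6 CPM in spleen and 175/85.7 CPM in lung. The fed lung stood above the fasting lung and the fed spleen below the fasting spleen, and the fold change was 1.37 ± 0.33.

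The most abundant chemokine gene of lung per length was Cxcl15 (chr5:90794534-90803067, plus strand), also called lungkine, a product of lung epithelium, at 1310.4/951 CPM in lung and 1.15/1.19 CPM in spleen (-9.96 ± 0.30, adjusted p = 1.43e-07). Cxcl14, made by epithelial and stromal cells, had 60.7/44.4 CPM in lung and 0.0883/0.252 CPM in spleen, and the membrane-bound endothelial chemokine Cx3cl1 56.1/53.1 CPM in lung and 2.08/1.80 CPM in spleen. Its receptor Cx3cr1, found on monocytes, went the other way, with 19.5/8.40 CPM in lung and 41.9/40.2 CPM in spleen (1.59 ± 0.41). Ccl6, a chemokine of myeloid cells, had 99.8/87.6 CPM in lung and 35.3/28.3 CPM in spleen (-1.60 ± 0.28).

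Antigen presentation genes of MHC class II were higher in spleen in all 11 of 11 tested cases (median 2.67). Cd74, the invariant chain, had 3828/3331 CPM in spleen and 822/462 CPM in lung (2.48 ± 0.21), which made it the most abundant of the list per length in both organs. H2-Eb1 and H2-Aa, chains of the presenting molecules, had 1148/1088 and 2043/1900.5 CPM in spleen against 223/129 and 403/227 CPM in lung. The fed lung was above the fasting lung in these 3 genes, and the spleen libraries differed by less. H2-Oa and H2-Ob, which restrain peptide loading in B cells, differed more (4.19 ± 0.34 and 3.91 ± 0.28) than H2-DMa and H2-DMb1, the loading chaperone of all presenting cells (2.23 ± 0.19 and 1.92 ± 0.17). The difference between these fold changes was not tested.

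Most dendritic cell genes were higher in spleen. In this list 9 of 12 tested genes were higher in spleen (median 2.61). Flt3, the growth factor receptor of the lineage, had 59.1/65.1 CPM in spleen and 6.09/5.24 CPM in lung (3.40 ± 0.27). Clec9a and Xcr1, receptors of cross-presenting cells, had 47.9/43.7 and 25.9/15.8 CPM in spleen and 5.95/4.49 and 2.59/1.64 CPM in lung. Siglech, of plasmacytoid cells, had 52.5/69.5 CPM in spleen and 5.99/2.50 CPM in lung (3.88 ± 0.37). The inhibitory receptor Sirpa and Irf8, a transcription factor of dendritic cells that B cells share, were the most abundant of the list per length in spleen, with 77.9 and 60 RPKM there and 28.6 and 6.27 RPKM in lung. Itgax (CD11c), which alveolar macrophages also make, was not called, since its fold change was under the threshold (0.91 ± 0.22, adjusted p = 0.00506), with 145/135 CPM in spleen and 78.1/66.5 CPM in lung. Zbtb46, a factor of classical dendritic cells that endothelium also makes, had 73.8/65.6 CPM in spleen and 57.8/59.2 CPM in lung and was not called (0.20 ± 0.13), and Clec10a had 4.15/6.22 CPM in spleen and 2.66/3.80 CPM in lung.

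Genes of spleen macrophages were higher in spleen, and most of those of alveolar macrophages higher in lung. All 14 of 14 tested genes of the spleen macrophage list were higher in spleen (median 3.34), and their summed level was 2371/3149 CPM in spleen and 257/243 CPM in lung. Spic, the transcription factor of iron-recycling red pulp macrophages (chr10:88674772-88685015, minus strand), had 103/128 CPM in spleen and 0.998/0.416 CPM in lung (7.34 ± 0.35, adjusted p = 1.02e-07). Slc40a1, the iron exporter ferroportin, had 489/576 CPM in spleen and 14.2/12.9 CPM in lung (5.22 ± 0.48), and Hmox1, which opens the haem ring, 228/199 CPM in spleen and 20.1/18.7 CPM in lung (3.43 ± 0.70). These 3 genes of red cell clearance were each high in both spleen libraries. Cd5l and Timd4, a secreted scavenger protein and a receptor for dying cells, had fold changes of 6.97 ± 0.30 and 5.88 ± 0.42. Cd209b and Siglec1, lectins of marginal zone and metallophilic macrophages, had 20.2/39.3 and 132/170.2 CPM in spleen and 1.10/1.58 and 25.2/33.3 CPM in lung. The complement genes C1qa, C1qb and C1qc had fold changes of 2.92 ± 0.16, 2.94 ± 0.18 and 3.12 ± 0.15. C1qa was the most abundant of the list per length, at 177 RPKM in spleen and 22.7 RPKM in lung. Vcam1, an adhesion molecule of red pulp macrophages and stroma, had 527/1023 CPM in spleen and 76.7/66.3 CPM in lung. The smallest difference of the list was that of Adgre1 (F4/80), a general macrophage gene (1.98 ± 0.14).

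In the alveolar macrophage list 7 of 12 tested genes were higher in lung, 2 were higher in spleen and 3 were not called (median -3.07). Chil3, the chitinase-like protein Ym1 (chr3:106147554-106167564, minus strand), had 361/626 CPM in lung and 10.4/10.5 CPM in spleen (-5.56 ± 0.33, adjusted p = 7.01e-07). Ear2 and Ear1, a pair of closely related ribonuclease genes whose reads can be confused, had 49.3/67.7 and 12.9/21.5 CPM in lung and 13.7/14.5 and 0.530/0.323 CPM in spleen. Siglecf, a lectin of alveolar macrophages and eosinophils, had 16.5/19.2 CPM in lung and 1.55/0.862 CPM in spleen. Atp6v0d2 (a proton pump subunit) and Plet1 had fold changes of -5.59 ± 0.28 and -7.80 ± 1.27, and Krt79 was 944-fold (95% interval 169 to 37298) higher in lung. For Chil3, Ear1, Ear2 and Siglecf the fasting lung was above the fed lung. The 2 members higher in spleen were Mrc1, the mannose receptor of many tissue macrophages (217/345 CPM in spleen, 119.7/151 CPM in lung), and Csf2rb, the shared receptor chain for GM-CSF (134/135 CPM in spleen and 47.2/36.2 CPM in lung). Pparg and Bhlhe41, transcription factors of these cells with wide use elsewhere, were not called (-0.36 ± 0.34 and 0.01 ± 0.36), and nor was Csf2ra.

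Monocyte and neutrophil genes gave a mixed picture. In the monocyte list 6 of 8 tested genes were higher in spleen (median 1.77). Csf1r, the receptor for the macrophage growth factor, had 565/781 CPM in spleen and 141/117 CPM in lung (2.34 ± 0.17), and Ly6c2, of classical monocytes, 39.0/33.4 CPM in spleen and 10.8/6.35 CPM in lung (2.07 ± 0.28). Spn and Itgal, leukocyte adhesion proteins, were higher in spleen as well (2.09 ± 0.22 and 1.94 ± 0.17). Nr4a1, an immediate-early nuclear receptor gene that patrolling monocytes need and many cells induce, was higher in lung, with 36.4/29.2 CPM in spleen and 128/45.4 CPM in lung (-1.40 ± 0.48, adjusted p = 0.0271). Of 11 tested neutrophil genes, 9 were not called (median 0.10). The alarmin genes S100a9 and S100a8 had 45.2/27.4 and 33.3/20.3 CPM in spleen and 40.7/26 and 30.0/19.9 CPM in lung, so that the organs overlapped and the fed libraries were above the fasting ones in both. Retnlg had 12.2/5.75 CPM in spleen and 11.5/4.93 CPM in lung. The fold changes were 0.02 ± 0.42 for S100a8, 0.06 ± 0.25 for S100a9 and 0.10 ± 0.43 for Retnlg, and these errors leave room for differences in either direction. Cxcr2, a chemokine receptor of neutrophils, was higher in spleen (2.19 ± 0.43), and Ltf (lactoferrin), which glandular epithelium also secretes, was higher in lung, with 3.40/6.04 CPM in spleen and 37.2/132 CPM in lung (-4.08 ± 0.47).

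In the mast cell and basophil list 3 of 10 tested genes were higher in lung and none in spleen (median -0.73). The share in lung is near the 22.0% of all tested genes. The called members were Kit, a growth factor receptor that lung endothelium also makes (44.1/43.8 CPM in spleen, 226/221 CPM in lung), Gata2, a factor shared by endothelium (8.57/11.1 CPM in spleen and 113/163 CPM in lung), and Hdc, which makes histamine (4.72/4.28 CPM in spleen and 92.9/57.8 CPM in lung). The granule proteases that define mast cells were low in both organs: Cpa3 had 0.883/0.539 CPM in spleen and 0.732/0.665 CPM in lung, and Cma1 1.02/0.862 CPM in spleen and 1.06/0.776 CPM in lung. Neither was called, and the organs overlapped for each.

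Leukocyte trafficking genes hold integrins and receptors of leukocytes and their ligands on vessels. Of 13 tested genes 8 were higher in spleen and 2 higher in lung (median 1.37). The integrin chains of leukocytes Itgb2, Itga4 and Itgb7 were higher in spleen (1.46 ± 0.16, 2.81 ± 0.23 and 2.56 ± 0.19), as was Selplg, the leukocyte ligand of selectins (2.04 ± 0.21). Icam1 and Icam2, endothelial ligands of integrins that hold the Itgb2 chain, were the members higher in lung, with 449/371 and 116/92.8 CPM in lung and 131/125 and 49.0/45.6 CPM in spleen. S1pr1, the receptor that lets lymphocytes leave tissue and that endothelium also makes, had 254/261 CPM in spleen and 312/408 CPM in lung and was not called (-0.52 ± 0.45).

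Most red cell precursor genes were higher in spleen, and the count depended on the fasting spleen. In the erythroid list 14 of 19 tested genes were higher in spleen and 5 were not called (median 2.31). The median was 1.15 in the fed pair and 2.80 in the fasting pair, and the list summed to 4008/9629 CPM in spleen and 3453/3375 CPM in lung. The membrane protein gene Slc4a1 (band 3) had 41.1/129 CPM in spleen and 10.5/13.3 CPM in lung. Car1, a carbonic anhydrase of red cells, had the largest fold change of the list (5.02 ± 0.63), with 6.40/9.23 CPM in spleen and 0.166/0.277 CPM in lung. The globin genes Hbb-bs, Hba-a1 and Hba-a2, whose RNA also lies in circulating reticulocytes and whose copies share reads, were not called (0.87 ± 0.30, 0.70 ± 0.30 and 0.80 ± 0.33). Hbb-bs had 2075/4947 CPM in spleen and 1818/1788 CPM in lung, so that all 4 libraries were separate by organ, with the fed spleen nearer to the lung than to the fasting spleen. With the fasting spleen left out 5 of 19 genes were called (median 1.08), against 16 with the fed spleen left out. Without the fed lung 9 were called, and without the fasting lung 8.

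Promoters of erythroid genes were read for the GATA motif, which the blood factor Gata1 binds. The 250 bases before the start of each RefSeq gene (build GRCm38.p6) were searched on both strands, that is for AGATAA and its reverse complement TTATCT, and 15 of the 19 genes had a window. AGATAA or its complement lay in 6 of 16 windows of erythroid genes (37.5%) and in 7.12% of all 17883 windows of tested genes. It lay in 9.11% of the windows of genes called higher in spleen and in 7.20% of those called higher in lung. Shares in other lists of at least 4 windows reached 3 of 10 (30.0%) for mast cell and basophil genes and 2 of 9 (22.2%) each for the megakaryocyte, MHC class II and pancreatic acinar lists. The 6 genes were Hbb-bs, Alas2, Epor, Epb42, Rhd and Trim10. Of these, 3 are shown because they differ in fold change. Alas2, which makes the haem precursor, had 166/398 CPM in spleen and 131/131 CPM in lung (1.05 ± 0.36). Trim10, which red cell maturation needs, had 6.76/13.5 CPM in spleen and 2.10/1.28 CPM in lung (2.51 ± 0.52), and Epor, the erythropoietin receptor, 2.91/5.89 CPM in spleen and 3.43/2.55 CPM in lung with no call (0.48 ± 0.33). Their windows are chrX:150547167-150547416, plus strand for Alas2, chr17:36869324-36869573, plus strand for Trim10 and chr9:21963577-21963826, minus strand for Epor, and are printed on the strand of the gene with the motif in capitals.
Alas2: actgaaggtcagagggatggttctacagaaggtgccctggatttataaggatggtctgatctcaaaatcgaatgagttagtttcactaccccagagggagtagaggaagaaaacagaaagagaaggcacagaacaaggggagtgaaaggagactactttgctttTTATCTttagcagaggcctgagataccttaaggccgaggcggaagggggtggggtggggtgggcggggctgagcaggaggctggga
Trim10: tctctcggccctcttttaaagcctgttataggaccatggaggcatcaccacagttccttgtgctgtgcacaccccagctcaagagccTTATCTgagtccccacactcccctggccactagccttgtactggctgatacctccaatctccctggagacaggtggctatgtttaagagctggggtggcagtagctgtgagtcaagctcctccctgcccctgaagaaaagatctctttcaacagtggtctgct
Epor: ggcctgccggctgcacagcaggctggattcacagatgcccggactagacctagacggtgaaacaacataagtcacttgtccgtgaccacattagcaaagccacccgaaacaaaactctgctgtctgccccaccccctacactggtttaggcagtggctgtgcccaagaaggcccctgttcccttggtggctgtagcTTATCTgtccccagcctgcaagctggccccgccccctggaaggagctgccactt
A match is a run of letters and not a bound site, and these shares were not tested. The octamer ATGCAAAT, which immunoglobulin promoters are known for, was in 1.34% of all windows and in 1.83% of those of genes called higher in spleen. It was in 0 of 15 windows of the B cell list, which holds no immunoglobulin gene. The immunoglobulin and plasma cell list had windows for only 4 of its 15 genes, and 0 of these 4 windows held the octamer. This says no more than that these letters are not in those windows. The ETS motif CCGGAAGT lay in 4.59% of all windows, 3.39% of those of genes called higher in spleen and 1.68% of those of genes called higher in lung. None of these motifs holds another.

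In the megakaryocyte and platelet list 2 of 12 tested genes were higher in spleen, a share near the 19.4% of all tested genes (median 0.69). They were Ppbp, a platelet chemokine (51.6/59.1 CPM in spleen, 26.2/25.3 CPM in lung), and Clec1b, the receptor CLEC-2 (26.6/30.8 CPM in spleen and 7.12/8.95 CPM in lung). Pf4 and Itgb3 were not called (0.55 ± 0.27 and 0.57 ± 0.22), with 16.9/17.6 and 70.9/78.3 CPM in spleen and 10.1/12.3 and 50.3/46.3 CPM in lung. Genes of dividing cells were higher in spleen in 13 of 16 tested cases (median 1.69). Mki67, the proliferation antigen, had 199.9/211 CPM in spleen and 57.7/30.7 CPM in lung (2.26 ± 0.25), and Mcm6, a helicase subunit of DNA replication, 93.2/79.9 CPM in spleen and 40.2/28.9 CPM in lung (1.29 ± 0.14). Pcna, the replication clamp, was under the fold threshold (0.78 ± 0.16).

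In the vessels, endothelial genes were higher in lung almost throughout. In the list of genes shared by most endothelium, 21 of 23 tested genes were called higher in lung, against 22.0% of all tested genes, and none in spleen (median -3.09, fed pair -3.10, fasting pair -2.89). The list summed to 1343/1545 CPM in spleen and 8704/9544 CPM in lung. Cldn5, a tight junction protein, was the most abundant per length, at 211 RPKM in lung and 20.2 RPKM in spleen, followed by Cdh5 (VE-cadherin) at 194 and 14.8 RPKM. Cdh5 had 57.2/67.4 CPM in spleen and 857/776 CPM in lung (-3.76 ± 0.18, adjusted p = 1.11e-07). Ptprb, the endothelial phosphatase VE-PTP, had 224/299 CPM in spleen and 1792/2342 CPM in lung, and Clec14a 13.0/20.4 CPM in spleen and 460.5/578 CPM in lung (-5.02 ± 0.36). For each of these both lung libraries stood above both spleen libraries. The size of the difference varied within the list: Emcn (endomucin) and Clec14a differed most (-5.05 ± 0.27 for Emcn) and the integrin ligand Icam2 least among the called genes (-1.18 ± 0.16). Pecam1 (CD31), which leukocytes and platelets share, had 263/303 CPM in spleen and 737/769 CPM in lung (-1.47 ± 0.17). S1pr1 and the matrix gene Mmrn2 were not called (-0.62 ± 0.23 for Mmrn2).

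Genes that mark lung capillaries were all higher in lung. Called were 16 of 16 tested genes (median -5.20). Car4, a membrane carbonic anhydrase of the alveolar capillary cells called aerocytes (chr11:84957786-84966044, plus strand), had 0.265/0.216 CPM in spleen and 84.0/103 CPM in lung (-8.70 ± 0.68, adjusted p = 2.04e-06). Tmem100, a target of endothelial BMP signalling (chr11:90030348-90036508, plus strand), had 1.15/2.08 CPM in spleen and 338/423 CPM in lung (-7.96 ± 0.66). Foxf1, a mesenchymal and endothelial factor of lung, had 2.03/2.37 CPM in spleen and 212/215 CPM in lung (-6.64 ± 0.27). Calcrl and Hpgd, a receptor of adrenomedullin and an enzyme that degrades prostaglandins, were the most abundant per length, at 309.6 and 334 RPKM in lung and 20.4 and 50.5 RPKM in spleen. Apln and its receptor Aplnr, which mark different capillary cells, had 58.6/21.6 and 112/54.2 CPM in lung and 1.15/0.647 and 4.68/1.62 CPM in spleen. Both were higher in the fed than in the fasting lung, whereas Rgcc went the other way with 40.7/175 CPM in lung.

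The sinusoid list divided between the organs. Of 5 tested genes 3 were higher in spleen and 2 in lung. Stab2, a scavenger receptor of sinusoidal endothelium (chr10:86841198-87008025, minus strand), had 427/522 CPM in spleen and 4.56/3.49 CPM in lung (6.80 ± 0.70, adjusted p = 1.43e-05). Madcam1 and Nkx2-3, given above, had 14.2/11.4 and 11.7/12.6 CPM in spleen. The relative Stab1, which macrophages also make, and Plvap, the diaphragm protein of fenestrated vessels, were higher in lung (-1.49 ± 0.17 and -1.19 ± 0.18), with 193/181 and 309.6/268 CPM in lung and 67.0/70.6 and 115/147 CPM in spleen. In the lymphatic list 5 of 6 tested genes were higher in lung and 1 in spleen. Lyve1, the hyaluronan receptor of lymphatic endothelium and some macrophages, had 1.59/2.01 CPM in spleen and 204/585 CPM in lung (-7.76 ± 0.52), and Pdpn, which alveolar type 1 cells share, 1.68/0.934 CPM in spleen and 121/120.3 CPM in lung. Prox1, the lymphatic master factor, was the member higher in spleen, with 17.6/23.9 CPM in spleen and 7.52/5.41 CPM in lung (1.63 ± 0.30), and had its highest mean level of the 8 organs in liver.

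**Figure D3:**
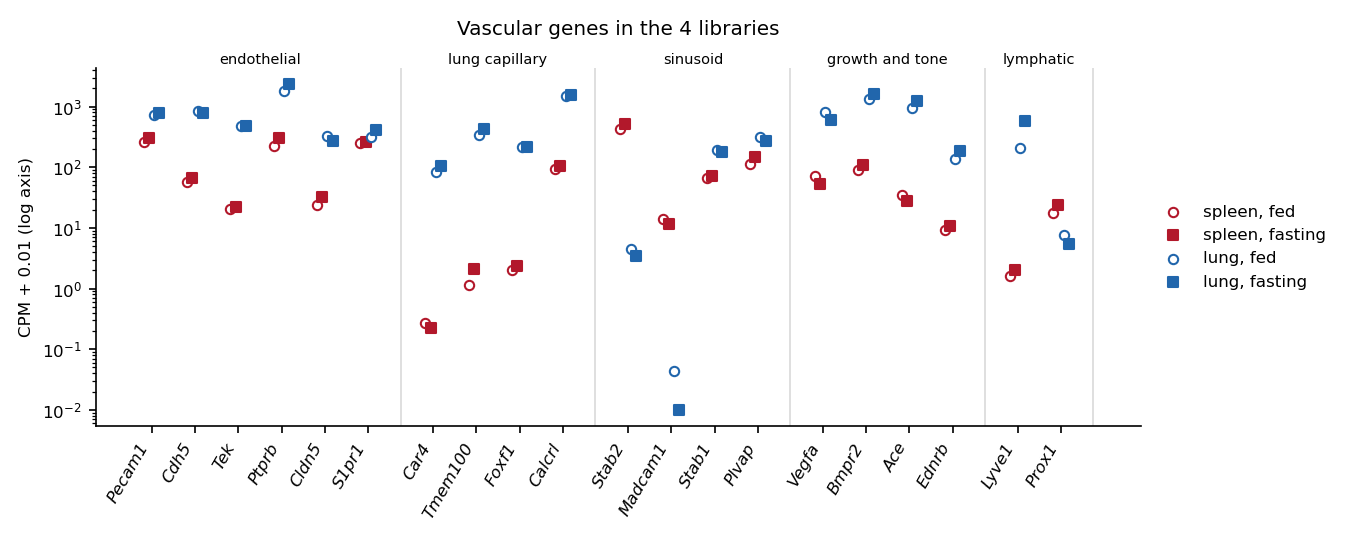
Level of vascular genes in each of the 4 libraries, as CPM + 0.01 on a log axis, with spleen in red, lung in blue, fed libraries as open circles and fasting libraries as squares. Endothelial and capillary genes lie higher in both lung libraries, S1pr1 by the least, while Stab2, Madcam1 and Prox1 lie higher in both spleen libraries.

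Most genes of arteries and veins were higher in lung. In the artery and vein list 10 of 13 tested genes were higher in lung and 1 in spleen (median -2.49). The arterial factor Hey1 and the connexin gene Gja5 had 67.2/83.0 and 54.7/27.8 CPM in lung and 2.30/3.34 and 1.5/1.54 CPM in spleen. The ligand Dll4 and the receptors Notch1 and Notch4 had fold changes of -3.53 ± 0.46, -1.42 ± 0.19 and -3.42 ± 0.23. Efnb2 of arteries and its venous partner Ephb4 were higher in lung as well (-3.65 ± 0.23 and -2.32 ± 0.12). Nr2f2, a venous factor, was not called, with 45.3/60.2 CPM in spleen and 74.7/64.3 CPM in lung. Ackr1, a chemokine-binding protein of venules and red cells, was the member higher in spleen, at 1.15/1.26 CPM against 0.266/0.250 CPM.

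Ligands and receptors of vessel growth were higher in lung in 19 of 22 tested cases and none in spleen (median -2.97). Of the ligands, Vegfa had 825/607 CPM in lung and 71.6/52.9 CPM in spleen (-3.57 ± 0.44), and Angpt1 111/139 CPM in lung and 16.4/26.7 CPM in spleen (-2.57 ± 0.48). Vegfb and Vegfc were not called (-0.48 ± 0.32 and -0.80 ± 0.22). Of the receptors, Kdr (VEGF receptor 2) had 625/471 CPM in lung and 68.2/63.5 CPM in spleen (-3.09 ± 0.29), and Tek, which binds the angiopoietins, 470.4/481 CPM in lung and 20.1/21.9 CPM in spleen (-4.55 ± 0.19). The BMP receptors Acvrl1 and Bmpr2, genes mutated in inherited diseases of lung vessels, had 690.4/533 and 1354/1627 CPM in lung and 34.0/37.4 and 90.8/110.3 CPM in spleen (-4.14 ± 0.16 and -3.94 ± 0.17). Ligand and receptor genes were thus higher in lung together, with the exceptions named and Nrp2 (-0.74 ± 0.22, not called).

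Genes that set vascular tone were also mostly higher in lung. Of 19 tested genes 16 were higher in lung and none in spleen (median -3.71). Ace, which makes angiotensin II on the endothelial surface, had 35.2/27.5 CPM in spleen and 934/1217 CPM in lung (-5.15 ± 0.22, adjusted p = 6.21e-08). Ece1, which cuts endothelins to their active form, had 92.7/88.0 CPM in spleen and 544/724 CPM in lung (-2.85 ± 0.28). Edn1, the vasoconstrictor endothelin 1, and its receptors Ednra and Ednrb had fold changes of -4.57 ± 0.38, -3.71 ± 0.24 and -4.07 ± 0.22. On the relaxing side, the soluble guanylate cyclase subunit Gucy1b1 had 185/181 CPM in lung and 13.1/15.3 CPM in spleen, and the phosphodiesterase Pde5a 477/309 CPM in lung and 18.9/22.0 CPM in spleen. Nos3, the endothelial nitric oxide synthase, had a fold change of -1.48 ± 0.24. Agtr1a, the angiotensin II receptor, was not called, with 15.0/52.5 CPM in spleen and 14.6/24.3 CPM in lung, and nor were Ramp3 and Slc6a4.

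Genes of the cells that wrap vessels and of the matrix around them were mostly higher in lung. In the pericyte list 7 of 10 tested genes were higher in lung and 2 in spleen (median -2.77). Pdgfrb, the receptor of mural cells, had 97.9/109.5 CPM in spleen and 256/223 CPM in lung (-1.25 ± 0.14), and Postn and Cox4i2 had fold changes of -4.22 ± 0.34 and -6.13 ± 0.49. The members higher in spleen were Kcnj8 and Abcc9, the subunits of 1 potassium channel, with 24.5/34.8 and 48.4/65.6 CPM in spleen and 8.15/8.59 and 23.8/28.9 CPM in lung. Of 10 tested smooth muscle genes 7 were higher in lung (median -1.55), among them Acta2, with 87.3/39.9 CPM in spleen and 143/129 CPM in lung, and Mylk (-1.89 ± 0.14), while Tagln was not called (-0.52 ± 0.20). Of 20 tested fibroblast and matrix genes 16 were higher in lung (median -2.27). Inmt, a methyltransferase of lung fibroblasts, was the most abundant per length, with 2.96/3.02 CPM in spleen and 1080.3/1419 CPM in lung (-8.74 ± 0.97), followed by Npnt, a matrix protein of basement membranes (-2.03 ± 0.47), and Mfap4, Ltbp4 and Eln of elastic fibres had fold changes of -4.51 ± 0.51, -2.09 ± 0.14 and -2.71 ± 0.18. Col14a1, a fibril-associated collagen, was the 1 member higher in spleen, with 190.2/168 CPM in spleen and 56.0/45.2 CPM in lung (1.78 ± 0.24).

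Epithelial lists had the largest median fold changes toward lung of all lists. The alveolar type 2 list was higher in lung in 10 of 11 tested cases (median -9.62), the alveolar type 1 list in 11 of 11 (median -6.52) and the airway list in 11 of 11 (median -7.37, or -7.10 with Krt5, at 0 in spleen, set to its lower bound). Scgb1a1, the secretory protein of club cells, was the most abundant gene of these lists per length in lung, at 28470.2 RPKM there and 37.1 RPKM in spleen. Of the surfactant genes, Sftpb had 2.25/2.69 CPM in spleen and 2309/2503 CPM in lung, and Sftpa1 3.53/5.53 CPM in spleen and 3045/4086 CPM in lung. Cyp2f2 and Scgb3a2, also of club cells, had 1795/1799 and 550.4/496 CPM in lung and 3.93/2.91 and 0.442/0.862 CPM in spleen. Ager, of alveolar type 1 cells, had 7.86/8.48 CPM in spleen and 1435/1505 CPM in lung. Cav1 and Hopx, a coat protein of caveolae and a homeodomain factor that type 1 cells make in quantity, had fold changes of -5.51 ± 0.49 and -5.37 ± 0.38. Cav1 is not particular to lung, since its highest mean level of the 8 organs was in white adipose tissue. Napsa, a protease that processes surfactant and is also made in kidney and leukocytes, was not called, with 140.4/168 CPM in spleen and 216/211 CPM in lung. The spleen libraries thus held low but counted levels of the most abundant lung genes, and the origin of these reads was not tested.

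Promoters of alveolar type 2 genes were searched for the FOXA motif TGTTTAC and its complement GTAAACA, as the genes of the factors Foxa1 and Foxa2 were higher in lung (-7.52 ± 0.43 and -8.57 ± 0.57). Of 11 genes, 8 had a window, and the motif lay in 2 of 9 windows (22.2%), in 2.72% of all windows and in 2.96% of those of genes called higher in lung. It lay in 1 of 12 windows of the alveolar type 1 list and 0 of 4 of the airway list, and in 1 of 6 (16.7%) of the lymphatic list and 1 of 10 each of the lymphoid organisation and neutrophil lists. The windows were those of Lamp3, a lamellar body protein gene (-7.64 ± 0.33; chr16:19706366-19706615, minus strand), and Etv5, a factor that type 2 cells need (-2.92 ± 0.34; chr16:22439571-22439820, minus strand). They are shown as above, with the match in capitals. Etv5 had a second window, without the motif, which is not shown.
Lamp3: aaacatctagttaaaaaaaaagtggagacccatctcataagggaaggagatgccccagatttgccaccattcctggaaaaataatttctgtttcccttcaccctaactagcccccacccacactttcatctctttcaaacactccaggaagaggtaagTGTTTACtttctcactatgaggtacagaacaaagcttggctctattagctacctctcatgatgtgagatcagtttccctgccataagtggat
Etv5: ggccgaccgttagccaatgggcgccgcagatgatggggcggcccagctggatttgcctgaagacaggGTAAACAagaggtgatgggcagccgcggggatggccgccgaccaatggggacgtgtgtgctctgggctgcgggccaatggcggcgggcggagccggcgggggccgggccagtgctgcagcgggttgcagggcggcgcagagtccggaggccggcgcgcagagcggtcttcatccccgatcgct
Lamp3 had 3.09/2.59 CPM in spleen and 599/494 CPM in lung, and Etv5 30.2/25.2 CPM in spleen and 205/198 CPM in lung.

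Transcription factors that pattern the organs separated them on both sides. Of 17 tested factors 11 were higher in lung and 5 in spleen. On the spleen side beside Tlx1 and Nkx2-3, Nkx3-2 had 5.52/4.81 CPM in spleen and no count in lung (at least 55.3-fold higher), Wt1 25.4/38.0 CPM against 5.46/3.88 CPM, and Nkx2-5 5.43/5.25 CPM against 1.26/0.305 CPM. On the lung side, Nkx2-1, the lung and thyroid factor, had 59.2/55.0 CPM in lung and 0.0883/0 CPM in spleen, and was 1436-fold (95% interval 397 to 11862) higher in lung. The T-box genes Tbx4 and Tbx5 of lung mesenchyme had 80.5/97.6 and 52.0/57.7 CPM in lung and 0.0883/0.287 and 0.0442/0.144 CPM in spleen. Tbx2 and Foxf1 were the most abundant of the list per length in lung, at 65.0 and 88.3 RPKM.

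Beside the other 6 organs, the 2 organs took different places for immune and for vascular genes. The B cell list summed to 8082/7393 CPM in spleen, 514/261 CPM in lung and, next by the mean of its 2 libraries, 376/236 CPM in white adipose tissue. The T cell list summed to 284/117 CPM in lung, above the other 6 organs, which ran from 2.91/2.72 CPM in muscle to 29.2/33.9 CPM in white adipose tissue. For the pan-endothelial list, white adipose tissue reached 3209.7/2819 CPM, with 2179/2096 CPM in heart and 1343/1545 CPM in spleen, all under the 8704/9544 CPM of lung. The lung capillary list was lower in spleen (355/372 CPM) than in every organ but liver (219/199 CPM). The most abundant members of each list weigh most in these sums, which were not tested.

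**Figure D4:**
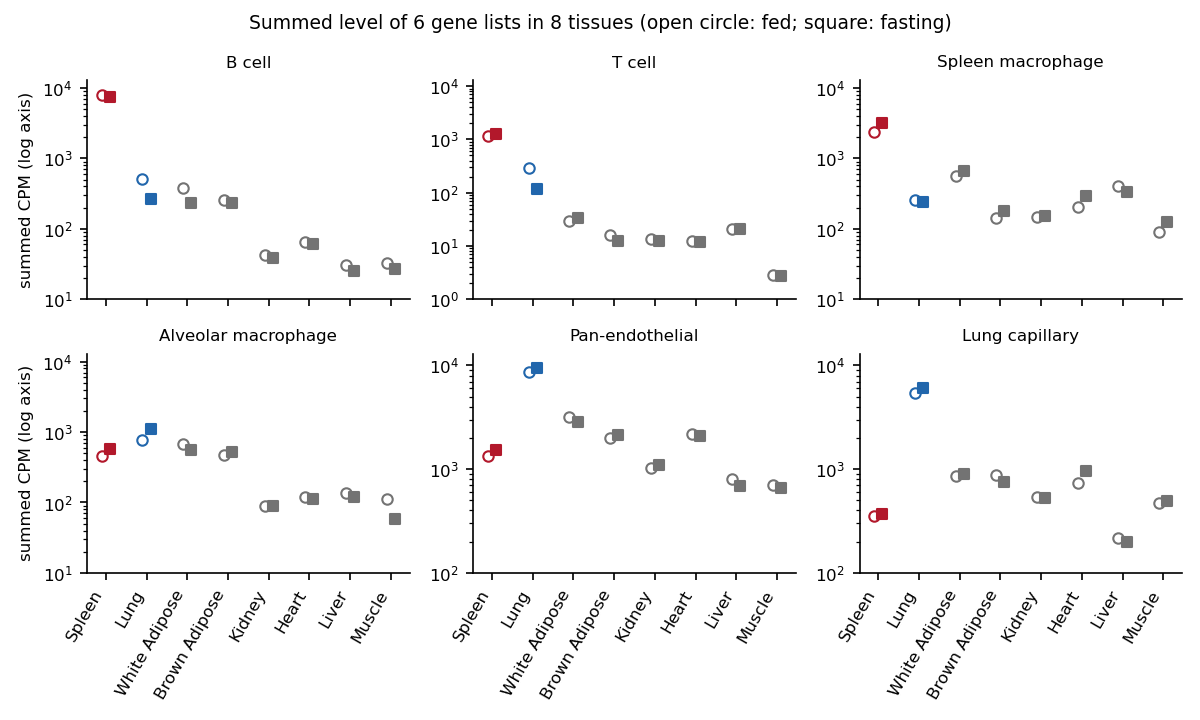
Summed CPM of 6 gene lists on a log axis in the 8 organs, with the fed library as an open circle and the fasting library as a square, spleen in red and lung in blue. B cell, T cell and spleen macrophage genes peak in spleen, and alveolar macrophage, pan-endothelial and lung capillary genes peak in lung.

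Markers of other tissues were present in some libraries. Genes of pancreatic acinar cells, which lie against the spleen, summed to 589/11.9 CPM in the fed and the fasting spleen and to 2.26/2.33 CPM in lung. Of the 10 genes, 8 were called higher in spleen, against 1 without the fed spleen, 10 without the fasting spleen, 1 without the fed lung and 3 without the fasting lung. Atrial and pulmonary vein cardiomyocyte genes summed to 1213/621 CPM in lung and 62.3/50.8 CPM in spleen, and all 8 were higher in lung, among them Myl7, the atrial light chain (88.4/35.5 CPM in lung), and the natriuretic peptide gene Nppa (198/27.4 CPM). Adipocyte and mesothelial lists summed to 118/193 and 243/224 CPM in lung and to 10.3/18.9 and 36.3/46.2 CPM in spleen. Hepatocyte genes summed to 136/110.4 CPM in spleen and 16.7/10.8 CPM in lung, and the 6 skeletal muscle genes to 4.94/4.42 and 17.7/13.3 CPM. The part of these cells in the immune and vascular results was not tested. With any 1 of the 4 libraries left out, the count of called genes stayed at 16 of 16 for the B cell list, 14 of 14 for the spleen macrophage list, 21 of 23 for the pan-endothelial list and 16 of 16 for the lung capillary list. Other counts fell: that of monocyte genes from 6 to as few as 4, of lymphoid organisation genes from 11 to 9, of dendritic cell genes from 9 to 7, of cell division genes from 13 to 10 and of platelet genes from 2 to 1. The lowest came without the fasting lung for monocyte genes, without the fasting spleen for lymphoid organisation and dendritic cell genes, without either fasting library for cell division genes, and without the fed spleen or the fasting lung for platelet genes.

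**Figure D5:**
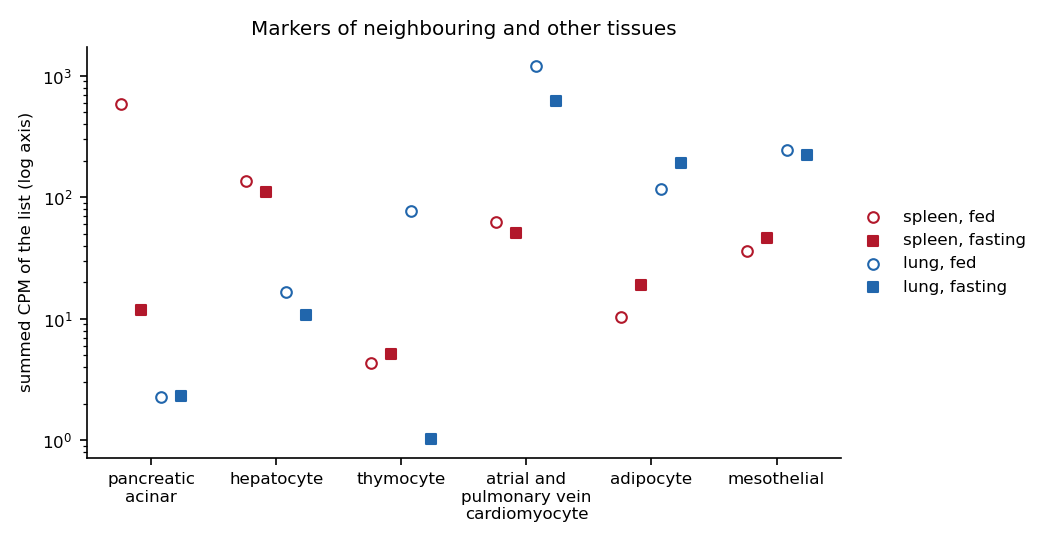
Summed CPM of marker lists of other cell types on a log axis in the 4 libraries, with spleen in red, lung in blue, fed libraries as open circles and fasting libraries as squares. Pancreatic acinar genes stand out in the fed spleen and thymocyte genes in the fed lung.

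The fed pair and the fasting pair were compared last. Over the 12673 genes that reached 10 CPM in 1 of the 4 libraries, the log2 ratios of the fed pair and the fasting pair correlated at r = 0.966 across genes, and the median size of their difference was 0.16. Of these genes, 614 had ratios that differed by more than 1 between the pairs, 684 had opposite directions, and 11 had opposite directions with both log2 ratios beyond 0.5. The largest moves toward spleen with fasting were those of Bmp10, an atrial growth factor gene, which had 56.6/0.0277 CPM in lung and 0.0883/0.0359 CPM in spleen, and of Arpp21, Dntt and Rag1, which were high in the fed lung. Arpp21 had 16.4/0.139 CPM in lung and 0.795/1.19 CPM in spleen. Cps1, a urea cycle enzyme of liver and gut, had 8.39/17.3 CPM in spleen and 0.732/0.0554 CPM in lung. The largest moves toward lung were of the digestive enzyme genes Clps, Cela2a, Try4, 2210010C04Rik and Ctrb1, which had 11.4 to 64.9 CPM in the fed spleen and at most 0.0719 CPM in the fasting spleen. With 1 library of each organ and treatment, a change of the gap with fasting could not be tested.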

How the data were processed

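RNA was extracted with Trizol from equal parts of pooled frozen tissue powder of 3 mice, and strand-specific libraries were read as 100-base pairs. The authors deposited whole-number counts per gene. Per the labels these came from featureCounts (Subread 2.0) and GENCODE vM24, after alignment by HISAT2 2.2.1.0 to GRCm38 of reads trimmed by fastp 0.23.2, with FastQC 0.11.8 for quality. The strand and pair settings of that counting are not given in the sources used here, so that genes overlapping on opposite strands may share reads. Each of the 16 columns was matched to its sample by name, with 0 columns of other samples.

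From these counts, edgeR 4.0.16 (R 4.3.3, limma 3.58.1) fitted organ and treatment to all 16 libraries with TMM factors and the filterByExpr filter. The quasi-likelihood test of spleen against lung used 7 residual degrees of freedom, with Benjamini-Hochberg adjustment over the 23580 genes tested. A gene was called at an adjusted p under 0.05 and a log2 fold change beyond 1. The standard error is the fold change divided by the root of the F statistic. The library totals ran from 14245178 to 36069968 counts, and 3 counts, the floor below which a level is not told from 0, came to 0.132 and 0.108 CPM in spleen and 0.0998 and 0.0832 CPM in lung. Intervals and floors cover counting error alone. CPM used library totals and RPKM the gene length in the table. Ratios per pair added 0.01 CPM. The procedure was tested on simulated data. The simulated counts had the same spread for all genes and no effect of fasting. They therefore do not show how the fit handles a fasting response that differs between organs. Gene positions came with the deposited counts, and gene types from a GENCODE vM21 annotation of GRCm38. A gene symbol was matched, without the version number, to 55144 of the 55385 gene identifiers. Promoter windows came from RefSeq, with a window for 14117 of 23580 tested genes. Tables were handled in Python 3.11.15 (pandas 2.3.3, scipy 1.17.1).

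Genes were named by rule: Ms4a1 and Sftpc, the 10 largest called fold changes each way at 10 CPM or more, the 3 most abundant members of each list and those called against its median, the 3 highest of each gene family, 5 genes with opposite directions, and 5 each way whose gap moved most with fasting. Other genes in the text were taken from the lists after their values were seen. Some list members are not reported here by name. The comparison, the lists and their members were chosen with earlier results of these data known. Alternatives were library totals, DESeq2 1.42.0 size factors and its Wald test, other filters, other models, Fisher's exact test per pair, a pseudocount of 1 CPM, and leaving out each library.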

Additional observations from a re-analysis of the deposited data

Results flagged for a closer look

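The fed pair and the fasting pair lay in opposite directions in 684 genes that reached 10 CPM. Of these, 11 had both log2 ratios of spleen over lung (CPM + 0.01) beyond 0.5, and the 6 given here are those among the named and listed genes. The difference between the pairs was not tested, since each pair is 1 library against 1 library. Of the genes of pancreatic acinar cells, the lipase cofactor gene Clps stood at 10.87 in the fed pair and -1.02 in the fasting pair, the carboxypeptidase gene Cpb1 at 6.23 and -2.98, and the lipase-related gene Pnliprp1 at 5.30 and -3.10. Clps had 0 counts in the fed lung, so that the size of its fed ratio follows the added 0.01 CPM. Its fasting ratio rests on 1 count in spleen and 3 in lung and shows no direction. The fasting spleen held 2 counts each of Cpb1 and Pnliprp1, a level that cannot be told from 0. Of the genes of lymphocyte precursors, the terminal transferase gene Dntt stood at -2.18 in the fed pair and 4.50 in the fasting pair, and Arpp21 at -4.35 and 3.01. Prss16, a protease of thymus epithelium, stood at -3.14 and 1.14. Among the 4 spleen and lung libraries the 3 acinar genes were high in the fed spleen alone, and the 3 other genes were highest in the fed lung. The pancreatic list summed to 589/11.9 CPM in spleen and 2.26/2.33 CPM in lung, and the thymocyte list to 4.33/5.10 and 77.0/1.03 CPM. The pancreatic list also summed to 115/255 CPM in the fed and the fasting liver and to 58.9/23.9 CPM in kidney. Cpb1 was called higher in spleen (4.90 ± 1.87, adjusted p = 0.0463 in edgeR's quasi-likelihood test) although it was higher in spleen in 1 of 2 pairs.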

How the results depend on the processing

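Spleen and lung were paired by pool of mice through the treatment term, and without that term 4476 genes were called higher in spleen and 5091 in lung. The count of genes called higher in spleen (4574) ran from 3659 to 4888, and that of genes called higher in lung (5197) from 4369 to 5704, over library totals, DESeq2 size factors, DESeq2's Wald test, 2 other filters, the 4 libraries alone, no treatment term, robust dispersion and the set without adipose tissue. The count in spleen moved further with edgeR's test against a fold change of 2 (2780), with no fold threshold (7083) and with Fisher's exact test in the fed pair (7354) and the fasting pair (8072) alone, a test that counts reads and not samples. The count in lung was 3960, 6220, 6311 and 6203 under the same settings. Leaving out 1 of the 4 libraries gave 3220 to 3780 genes in spleen and 4366 to 4697 in lung, where the lone library of an organ is assumed to vary like the others. Over the 16 settings, no gene was called the other way except 1 gene without the fed spleen and 1 under Fisher's test in the fasting pair.

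Of the 483 genes of the lists and named genes, 480 kept direction and call with library totals and 460 with DESeq2's test. The log2 ratios per pair depended more on the pseudocount. With 1 CPM in place of 0.01 CPM, 256 genes counted as unchanged in the fed pair and 275 in the fasting pair. The ratio moved in 227 and 204 genes, and changed sign in 4 genes of the fasting pair. Of the genes called with all libraries or under the alternative, the fitted sign changed in 10, in some of them on counts that cannot be told from 0. Over the leave-one-out fits, 2210010C04Rik ran from -2.07 to 11.51, Cela2a from -0.20 to 10.50, Cpa1 from -0.76 to 9.22, Cpb1 from -3.61 to 6.67, Ctrb1 from -0.45 to 11.47, Pnliprp1 from -3.87 to 5.82 and Try4 from -0.57 to 11.65, the lowest being without the fed spleen. The fasting spleen and each lung library held at most 3 counts of 2210010C04Rik, Cela2a, Ctrb1 and Try4. The low ends of these ranges therefore show no direction. Their high ends are fitted over a lung level that cannot be told from 0, and are not measured folds. Arpp21 ran from -3.94 to 2.61, Bmp10 from -9.61 to 0.72 and Dntt from -2.35 to 4.57, the highest being without the fed lung. Bmp10 had 2 counts in the fed spleen and 1 count each in the fasting spleen and the fasting lung. Its sign without the fed lung was therefore not measured. Clps (from -0.80 to 10.29), Prss16 (from -3.39 to 1.34) and Rag1 (from -5.61 to 0.24) also changed sign, but were not called with all libraries or where the sign changed. Clps too had at most 3 counts in the fasting spleen and in each lung library. In the fasting pair alone the log2 ratio was 0 for 2210010C04Rik and Try4, 3.01 for Arpp21, 0.28 for Bmp10, -0.19 for Cela2a, -0.20 for Cpa1, -2.98 for Cpb1, 4.50 for Dntt and -3.10 for Pnliprp1. Both libraries of that pair held at most 3 counts of 2210010C04Rik, Try4, Bmp10 and Cela2a, so that their ratios there show no direction. With a pseudocount of 1 CPM it was 0.011 for Bmp10, -0.015 for Cela2a, -0.028 for Cpa1 and -0.61 for Cpb1. Why these values moved was not tested beyond leaving out the libraries. At this depth a level under 0.132 CPM in the fed spleen or 0.108 CPM in the fasting spleen cannot be told from 0. In lung these limits were 0.0998 CPM in the fed and 0.0832 CPM in the fasting library.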

Other observations

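Some genes outside the immune and vascular lists had large differences toward spleen. Nr5a1, the nuclear receptor of steroid-making organs that spleen endothelium also needs, had 18.6/24.5 CPM in spleen and 0.0665/0 CPM in lung. Csmd3, which encodes a large membrane protein best known from brain, had 27.7/29.4 CPM in spleen and 0.0998/0.0277 CPM in lung, and the non-coding gene 2900052N01Rik 24.2/33.3 CPM in spleen and 0.0998/0.0277 CPM in lung. All 3 had their highest mean level of the 8 organs in spleen, and both spleen libraries were far above both lung libraries.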
